A study of Homo sapiens with 6 samples.

Results

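The albumin gene cluster of chromosome 4 is described here in HepG2 cells after knockdown of the long noncoding RNA LINC01977. Its 4 members, ALB, AFP, AFM and GC, were taken by gene name from the 29153 genes listed in the deposited table. HepG2 is an established human cell line from a liver cancer, and the study lists it among its hepatocellular carcinoma lines. The cells received lentivirus carrying either a hairpin RNA that targets LINC01977 (3 libraries, sh-LINC01977) or a control hairpin (3 libraries, sh-NC), and the labels give 72 h of treatment for both groups. According to the study's methods, infected cells of both kinds were selected with puromycin. The labels name the knockdown libraries sh3, and whether sh3 is the LINC01977 hairpin listed by the study could not be settled. A single hairpin against LINC01977 was sequenced, so an effect of the loss of LINC01977 and an effect of that hairpin cannot be told apart. The labels do not say whether the 3 libraries of a group came from separate cultures, so p-values measure the spread between these libraries, which may be technical.

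Albumin, afamin, alpha-fetoprotein and the vitamin D-binding protein form 1 family of secreted plasma proteins whose genes arose by duplication. ALB encodes albumin, the main protein of adult plasma, which carries fatty acids, bilirubin and drugs. AFP encodes alpha-fetoprotein, its counterpart in the fetus, which falls after birth, returns in many liver cancers and is used as their serum marker. AFM encodes afamin, a carrier of vitamin E and of Wnt proteins, and GC encodes the vitamin D-binding protein, which also binds actin. In the liver these genes are driven by promoters and distant enhancers that bind hepatocyte transcription factors of the C/EBP, forkhead and nuclear receptor families.

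ALB (ENSG00000163631) lies at chr4:73397114-73421412 on the plus strand in GRCh38. AFP (ENSG00000081051, chr4:73431138-73456174) and AFM (ENSG00000079557, chr4:73481683-73504001) follow it on the same strand. Between ALB and AFP are 9725 bases and between AFP and AFM 25508 bases, with 0 listed genes in either gap. GC (ENSG00000145321, chr4:71741693-71804041) is on the minus strand, 1593072 bases before ALB, with 5 listed genes in between. In GENCODE 29, the transcripts used here to describe ALB, AFP and AFM have 15 exons each and that of GC has 13. No other annotated gene overlaps ALB, AFP or AFM, while RNA5SP163 overlaps GC.

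The 250 bases before the transcript start of ALB, AFP and AFM are shown because ALB and AFP were abundant in these cells and their neighbour AFM was close to undetected. They are RefSeq sequences of GRCh38, plus strand, 5′ to 3′, and GC was not in that table. The RefSeq starts, 73404287 for ALB, 73436221 for AFP and 73481745 for AFM, lie inside the GENCODE 29 transcripts described above. Those transcripts start at 73404239, 73436163 and 73481683, so the last bases of each window fall within them. Capitals mark matches, on either strand, to the letters TATAAA (the core promoter box), CCAAT (bound by NF-Y) and TTNNGCAA (bound by C/EBP), and TGTTTAC (forkhead) was searched as well. No match overlapped another.
ALB, chr4:73404037-73404286: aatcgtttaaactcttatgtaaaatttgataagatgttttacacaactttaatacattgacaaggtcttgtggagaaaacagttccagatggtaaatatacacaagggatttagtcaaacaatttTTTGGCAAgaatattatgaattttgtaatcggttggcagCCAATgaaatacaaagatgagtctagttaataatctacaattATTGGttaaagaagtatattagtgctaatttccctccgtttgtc
AFP, chr4:73435971-73436220: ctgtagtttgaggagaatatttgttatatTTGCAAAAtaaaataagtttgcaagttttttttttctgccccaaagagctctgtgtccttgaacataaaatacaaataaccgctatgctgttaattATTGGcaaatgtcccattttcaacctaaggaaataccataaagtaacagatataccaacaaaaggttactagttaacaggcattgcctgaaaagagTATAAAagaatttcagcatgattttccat
AFM, chr4:73481495-73481744: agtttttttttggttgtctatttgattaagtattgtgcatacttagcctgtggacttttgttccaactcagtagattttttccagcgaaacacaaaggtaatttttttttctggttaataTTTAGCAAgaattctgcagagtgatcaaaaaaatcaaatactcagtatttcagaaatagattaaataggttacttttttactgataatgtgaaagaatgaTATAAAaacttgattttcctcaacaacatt

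The 3 windows were poor in G and C, at 30.0% for ALB, 31.6% for AFP and 28.0% for AFM, against a median of 58.0% in 35116 RefSeq promoter windows of this length, of which 1992 had at most 35% G and C. A C/EBP match was in each window, with its first base at -125 in ALB, -221 in AFP and -130 in AFM, counted back from -1 at the base before the transcript start, against 9.05% of all windows and 18.4% of those poor in G and C. TATAAA was found in AFP at -29 and in AFM at -30 but not in ALB, against 10.7% of all windows and 46.4% of those poor in G and C. CCAAT was found in ALB at -86 and -44 and in AFP at -125 but not in AFM, against 32.0% and 36.6%. The forkhead letters were in none of the 3 windows, against 2.98% and 7.18%. These matches are a description of the letters, and binding was not measured.

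The total counts of the 6 libraries were between 49929024 and 60441515. LINC01977 itself was close to undetected, with 4, 0 and 16 counts under sh-NC and 0, 0 and 4 counts under sh-LINC01977, so the knockdown could not be checked from these data. The study reports that it checked knockdown in HepG2 cells by qRT-PCR. The 5 hepatocyte markers listed (TTR, APOA1, SERPINA1, TF and HNF4A) were all present, with a summed level of 1407 to 1588 FPKM in sh-NC and 1038 to 1052 FPKM in sh-LINC01977 libraries. FPKM values are fragment numbers scaled to transcript length and library size, so that genes can be compared with each other. Markers of fibroblasts were at 0 to 0.0223 FPKM in all libraries, where 1 of 4 was listed, those of endothelial cells at 0.220 to 0.441 FPKM (3 of 3 listed) and those of immune cells at 0.746 to 1.30 FPKM (3 of 3 listed, with PTPRC at 0 in 5 libraries).

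ALB was one of the most abundant transcripts of HepG2 cells, and its level fell by about 2-fold after knockdown. The level of ALB was 1377, 1474 and 1515 FPKM in the sh-NC libraries and 694, 724 and 721 FPKM in the sh-LINC01977 libraries. The 3 knockdown libraries lay close together and far below all 3 control libraries. By FPKM, ALB stood at rank 22, 22 and 21 of all genes under sh-NC and at rank 39, 38 and 37 after knockdown. The underlying counts were 322841, 307852 and 376459 in sh-NC and 155477, 181858 and 148721 in sh-LINC01977 libraries, so that counting error was negligible beside the spread between libraries. In CPM, counts scaled to the library's total times its TMM factor, ALB was at 6188 ± 238 in sh-NC cells and at 2901 ± 82.3 in sh-LINC01977 cells (SD, n = 3 each). This was a 2.13-fold decrease, or -1.09 on the log2 scale (SE 0.041, 95% interval -1.19 to -0.99, adjusted p = 1.8e-04 over 13452 tested genes). All adjusted p in the text come from the quasi-likelihood test of edgeR and are adjusted by Benjamini-Hochberg, and SE is the standard error of a log2 fold change. An exact two-sided permutation test over libraries gave p = 0.1, the smallest that 3 libraries against 3 allow. Among all tested genes, 2033 (15.1%) had an adjusted p under 0.05, 1085 (8.07%) being lower and 948 (7.05%) higher, and ALB was 4th in order of p. A fold change of at least 2 with an unadjusted P of at most 0.05, the thresholds in the study's methods, was met by ALB and in all by 141 lower genes (1.05%). Groups without overlap were seen for 37.1% of tested genes. Among the 308 genes with a mean of at least 100 FPKM, whose median log2 fold change was -0.09, ALB had the lowest log2 fold change, followed by CES1 at -0.94. This place depends on the cut, since less abundant genes such as A1BG, at -1.56, and FGB, at -1.10, were lower. In bulk RNA, fewer cells that express ALB and less ALB RNA per cell cannot be told apart.

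AFP fell by a smaller amount. Its level was 1249, 1270 and 1328 FPKM in sh-NC libraries and 974, 1034 and 1015 FPKM in sh-LINC01977 libraries. The groups did not overlap, and the highest knockdown library was below the lowest control library. The counts of AFP were 282678, 255867 and 318444 in sh-NC and 210574, 250625 and 202049 in sh-LINC01977 libraries. Scaled by TMM, AFP was at 5262 ± 128 CPM in sh-NC cells and at 3956 ± 149 CPM in sh-LINC01977 cells (SD, n = 3 each). This was a 1.33-fold decrease, or -0.41 on the log2 scale (SE 0.039, 95% interval -0.51 to -0.32, adjusted p = 0.00169 in edgeR). It did not reach the 2-fold threshold. The exact two-sided permutation test over libraries gave p = 0.1. AFP was at rank 26, 26 and 23 by FPKM in sh-NC libraries and at rank 30, 29 and 29 after knockdown.

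Since ALB fell more than AFP, the order of the 2 genes turned round. AFP was below ALB in each sh-NC library, with a ratio of AFP to ALB FPKM of 0.907, 0.861 and 0.877, and above ALB in each sh-LINC01977 library, with a ratio of 1.40, 1.43 and 1.41. The ratio was 0.882 ± 0.023 (SD, n = 3) in sh-NC and 1.41 ± 0.013 (SD, n = 3) in sh-LINC01977 cells, a 1.60-fold difference or 0.68 on the log2 scale. A ratio within a library does not depend on how libraries are scaled to each other. The groups did not overlap (exact two-sided permutation test, p = 0.1), and this was the 1 pair of the 6 pairs of members that could be compared, because AFM and GC were at 0 in most libraries. In an edgeR fit with each library scaled to its own ALB count, chosen after the data were seen, AFP was 0.68 higher on the log2 scale (SE 0.038, 95% interval 0.59 to 0.77, adjusted p = 5.5e-06). In that fit 91.4% of the other tested genes were also higher relative to ALB. Together ALB and AFP made up 1.11% ± 0.046 of all counts in sh-NC and 0.698% ± 0.020 in sh-LINC01977 libraries (SD, n = 3 each). The plot of ALB and AFP levels by library shows both decreases and the change in their ratio.

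**Figure D1:**
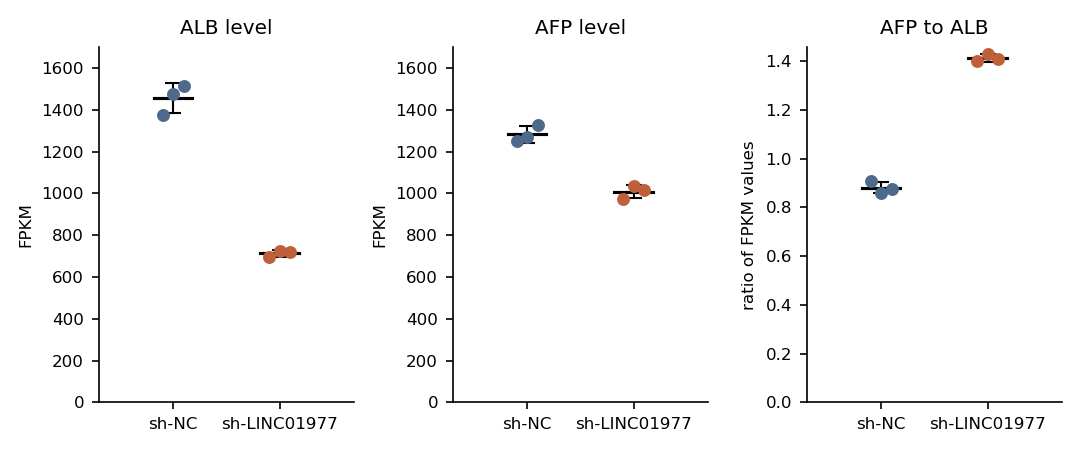
FPKM of ALB and of AFP, and the ratio of AFP to ALB FPKM, in each of the 3 sh-NC and 3 sh-LINC01977 libraries. Points are libraries, and bars are the mean and SD. ALB lies at 1377 to 1515 FPKM in sh-NC and 694 to 724 FPKM in sh-LINC01977 libraries, and the ratio is below 1 in the first group and above 1 in the second.

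AFM and GC were close to undetected in HepG2 cells of either group. AFM had 0 counts in 5 libraries and 9 counts in the first sh-LINC01977 library, where its level was 0.0512 FPKM. GC had 0 counts in 5 libraries and 8 counts in the third sh-LINC01977 library, at 0.0519 FPKM. Each gene was therefore seen in 1 library only, and not in the same one. A count of 0 allows a share of up to 4.96e-06% to 6.01e-06% of a library's counts, by a limit of 3 counts that covers counting error only and takes each count as a separate fragment. Counts of 4 were over-frequent in the table, so the true limit may be higher. Both were below the filter of a mean of 0.5 FPKM, and in the edgeR fit of all 29153 genes their adjusted p was 0.447 for AFM and 0.448 for GC. A difference between the groups was not detectable at this depth, and a fold change is not given because the control libraries were at 0. Of the 4 members, 2 passed the filter, so that the results on change concern ALB and AFP.

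The genes whose changes over the 6 libraries were most like that of ALB were SERPINC1, SLC17A2 and FGB. Likeness was the root mean square difference of log2 CPM after subtracting each gene's mean, over 11568 genes with a mean of at least 1 FPKM. The difference from ALB was 0.034 for SERPINC1, which encodes antithrombin, 0.0701 for SLC17A2, a solute carrier, and 0.0713 for FGB, the beta chain of fibrinogen. Their log2 fold changes were -1.03, -0.99 and -1.10. AFP was at place 577 in this order, with a difference of 0.341. For AFP the closest genes were RARRES2, which encodes the secreted protein chemerin, BTBD1 and CAMK1, a calcium-dependent kinase, with differences of 0.0146, 0.0181 and 0.0321 and log2 fold changes of -0.40, -0.42 and -0.40. The 2 members thus had different nearest genes, and all 6 libraries entered this measure, so it describes the contrast already given.

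To set ALB and AFP beside proteins with the same destination, 28 other secreted plasma proteins of the liver were listed, of which 26 passed the filter. At an adjusted p under 0.05, 17 were lower, 1 was higher and 8 did not pass, a share of 69.2% against 15.1% of all tested genes. Their median log2 fold change was -0.55, against -0.001 for all tested genes. Many of the 26 are abundant. Among the 308 genes with a mean of at least 100 FPKM, 54 were lower and 19 higher at an adjusted p under 0.05. The lower plasma protein genes with the smallest p were APOH, SERPINC1, FGB, FGG, APOA1, TF, AMBP and ORM2. APOH, which encodes beta-2-glycoprotein I, had a log2 fold change of -0.81 (adjusted p = 3.5e-04 in edgeR). FGG, the gamma chain of fibrinogen, fell by 0.99 on the log2 scale, and APOA1, the main protein of high-density lipoprotein, by 0.74. TF, the iron carrier transferrin, fell by 0.66, ORM2, an acute-phase protein, by 0.53, and AMBP, the precursor of alpha-1-microglobulin and bikunin, by 0.50.

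The log2 fold change of ALB was lower than that of all but 3 of these 26 genes, namely A1BG (-1.56), FGA (-1.24, adjusted p = 0.13) and FGB (-1.10). Relative to ALB, 19 of the 26 were higher at an adjusted p under 0.05 and 0 were lower, again beside 91.4% of all genes. AFP fell less, with 16 of the 26 below its log2 fold change. The 1 gene that rose was APOA2, named after its values were seen, a second protein of high-density lipoprotein. Its level was 1144, 1116 and 1149 FPKM in sh-NC and 1592, 1641 and 1547 FPKM in sh-LINC01977 libraries, a log2 fold change of 0.42 (SE 0.043, adjusted p = 0.00193 in edgeR). APOA2 was thus below ALB in every sh-NC library and above it in every knockdown library. APOB, AHSG and F2, which encode apolipoprotein B, fetuin-A and prothrombin, had log2 fold changes of 0.01, 0.06 and -0.07 and did not pass. The plot of plasma proteins orders all of these genes by their change.

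**Figure D2:**
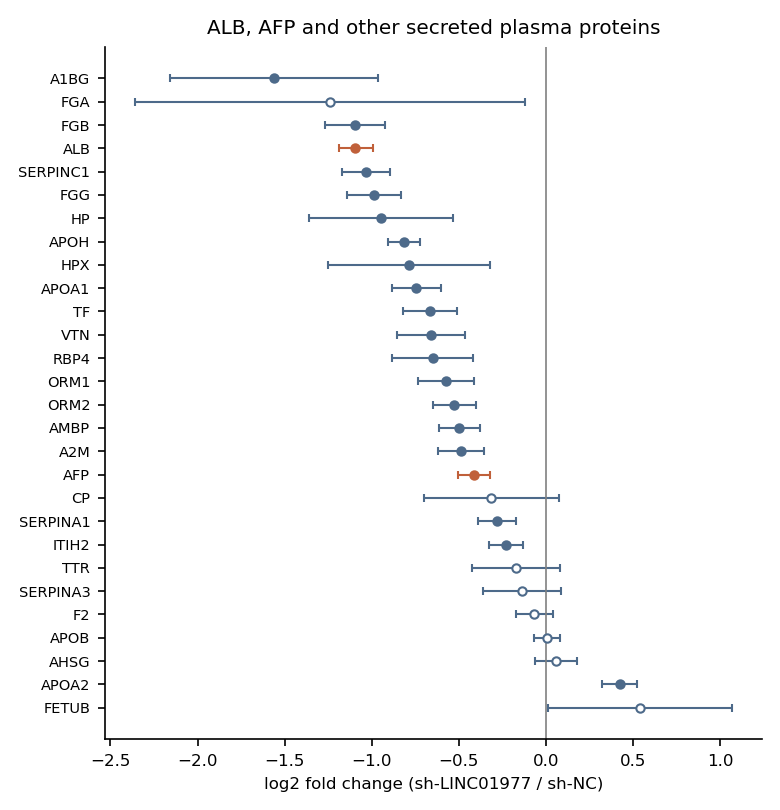
Log2 fold change (sh-LINC01977 over sh-NC, horizontal axis) of ALB and AFP (orange) and of 26 other secreted plasma proteins (blue), with 95% intervals from edgeR. Filled points have an adjusted p under 0.05. ALB, at -1.09, is near the top among the lowest values, AFP, at -0.41, stands further down, and APOA2, at 0.42, is the filled point to the right of 0.

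Of 26 transcription factors and cofactors linked to the control of ALB or AFP, 22 passed the filter. At an adjusted p under 0.05, 9 were lower, 0 were higher and 13 did not pass, a share of 40.9%, beside 15.1% of all tested genes, with a median log2 fold change of -0.29. The count of 9 was less firm than the other counts, since it was 5 without the first or the second sh-NC library, or without the second or the third sh-LINC01977 library, and 5 with scaling by library totals. ONECUT1, which encodes the liver factor HNF6, was the lowest. Its level was 0.790, 1.07 and 0.921 FPKM in sh-NC and 0.272, 0.364 and 0.321 FPKM in sh-LINC01977 libraries, a log2 fold change of -1.58 (SE 0.20, adjusted p = 0.00409 in edgeR). At this low level the size depended on the scale, and it was -0.55 with limma on log2(FPKM + 1). ONECUT1 reached the filter of a mean of 0.5 FPKM, and so the count of 9, only through the sh-NC group. Its mean was 0.928 FPKM there and 0.319 FPKM in sh-LINC01977 cells. HNF4A, a nuclear receptor central to hepatocyte gene expression, was at 7.18, 8.25 and 6.82 FPKM in sh-NC and 5.22, 5.38 and 5.23 FPKM in sh-LINC01977 libraries, a log2 fold change of -0.55 (adjusted p = 0.00715 in edgeR). For both genes all knockdown libraries were below all control libraries.

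NR0B2, a corepressor of nuclear receptors, fell by 0.69 on the log2 scale (adjusted p = 0.00193 in edgeR), RXRA, a partner of many nuclear receptors, by 0.48 (adjusted p = 0.0122) and FOXA1, a forkhead factor, by 0.34 (adjusted p = 0.00705). The log2 fold changes of CEBPA, NR2F2 and NFIA were -0.22, -0.31 and -0.45 (adjusted p = 0.023, 0.0412 and 0.0474 in edgeR), and each lost the call in at least 4 of the 6 fits that left out 1 library. FOXA2 was at 12.5 ± 0.84 FPKM in sh-NC and 12.6 ± 0.78 FPKM in sh-LINC01977 cells (SD, n = 3 each) and did not pass. ZHX2, known as a repressor of AFP, had a log2 fold change of -0.21 and did not pass, with overlapping groups, and ZBTB20, another such repressor, was below the filter at no more than 0.0133 FPKM in any library. Whether any of these levels bears on ALB or AFP was not tested.

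Genes that process, bind or take up the 4 proteins or their cargo moved in both directions. Of 20 listed, 14 passed the filter, and 5 were higher, 1 was lower and 8 did not pass, a share of 42.9%, beside 15.1% of all tested genes, with a median log2 fold change of 0.24. FURIN, which removes the propeptide of albumin, was at 34.1, 33.6 and 33.8 FPKM in sh-NC and 52.0, 45.9 and 47.4 FPKM in sh-LINC01977 libraries, a log2 fold change of 0.45 (SE 0.055, adjusted p = 0.00359 in edgeR). Among genes that fold proteins with disulfide bonds in the endoplasmic reticulum, ERO1A rose by 0.50, PDIA4 by 0.26 and the chaperone HSPA5 by 0.24 on the log2 scale, with adjusted p between 0.0045 and 0.00536. The protein disulfide isomerases P4HB, at -0.03, and PDIA3, at 0.24 (adjusted p = 0.0547 in edgeR), did not pass. Thus FURIN, ERO1A, PDIA4 and HSPA5, which are not specific to albumin, were higher in the same libraries in which ALB was lower.

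CYP24A1, the enzyme that inactivates the vitamin D hormone carried by the GC protein, was at 36.5, 38.1 and 29.7 FPKM in sh-NC and 76.1, 75.5 and 68.7 FPKM in sh-LINC01977 libraries. The groups were far apart, with a log2 fold change of 1.02 (SE 0.11, adjusted p = 0.00222 in edgeR). CYP27A1, an enzyme able to activate vitamin D, had a log2 fold change of 0.11 and did not pass, and VDR, CYP2R1 and CYP27B1 were below the filter. AMN, whose product joins cubilin in the receptor for albumin and for the vitamin D-binding protein in the kidney, fell by 0.92 on the log2 scale (adjusted p = 0.00211), while its partners CUBN and LRP2 were below the filter. Of the 2 chains of the neonatal Fc receptor, which rescues albumin from breakdown, FCGRT had a log2 fold change of -0.23 (adjusted p = 0.181) and B2M varied from 4.94 to 23.6 FPKM within the sh-NC libraries, so neither passed. PORCN, which attaches the lipid that afamin binds on Wnt proteins, had a log2 fold change of 0.40 (adjusted p = 0.0845), and WLS was below the filter. The plot of regulators and handling genes shows both lists.

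**Figure D3:**
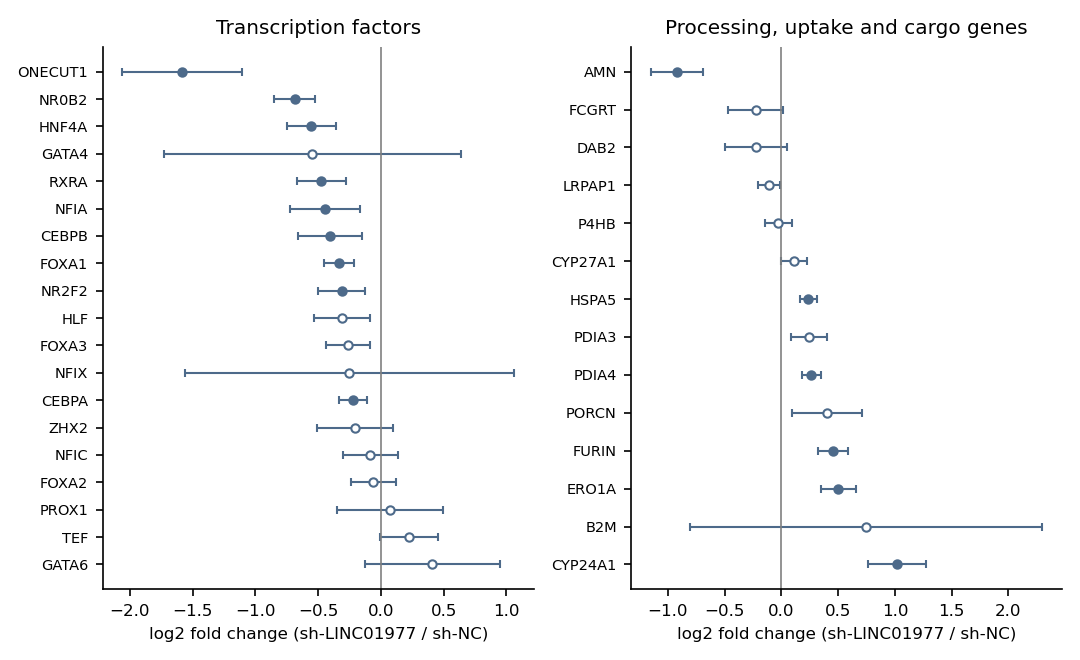
Log2 fold change (sh-LINC01977 over sh-NC, horizontal axis) with 95% intervals from edgeR for 19 of the 22 tested transcription factors (left) and the 14 tested genes of processing, uptake and cargo (right). Filled points have an adjusted p under 0.05. All 9 filled transcription factors have values below 0, and of the filled handling genes 5 are above 0 and AMN, at -0.92, is below.

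The decrease of ALB and AFP was set beside the genes around them. Within 1 Mb of the span from GC to AFM, 21 other genes were listed, of which 9 passed the filter, and 3 were higher, 0 were lower and 6 did not pass. The share of 33.3% rests on these 9 genes and stands beside 15.1% of all tested genes, 7.05% being higher. All 3 that rose lie beyond AFM. AREG, which encodes the growth factor amphiregulin, was at 21.4, 20.4 and 19.3 FPKM in sh-NC and 37.7, 34.4 and 33.7 FPKM in sh-LINC01977 libraries, a log2 fold change of 0.73 (SE 0.075, adjusted p = 0.00211 in edgeR). EREG, which encodes the related factor epiregulin, had a log2 fold change of 1.15 (adjusted p = 0.00688) from a low level of 0.370 ± 0.058 FPKM (SD, n = 3) in sh-NC cells. EREG reached the filter, and so the count of 3 higher genes, only through the sh-LINC01977 group, at 0.857 ± 0.075 FPKM (SD, n = 3). CXCL8, which encodes the chemokine interleukin-8, was higher by 0.74 on the log2 scale (adjusted p = 0.0496), and lost the call without any 1 of the 3 sh-NC libraries or the second or the third sh-LINC01977 library.

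The closest tested genes on the other side of ALB were ANKRD17, with a log2 fold change of -0.06 (adjusted p = 0.429 in edgeR), and COX18, with 0.27 (adjusted p = 0.0813). GRSF1, MOB1B, DCK and MTHFD2L, further out, had log2 fold changes of -0.12, 0.24, 0.09 and 0.05 and did not pass. In this interval ALB and AFP were therefore the 2 tested genes with a decrease at an adjusted p under 0.05, as the plot of genes around the cluster shows.

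**Figure D4:**
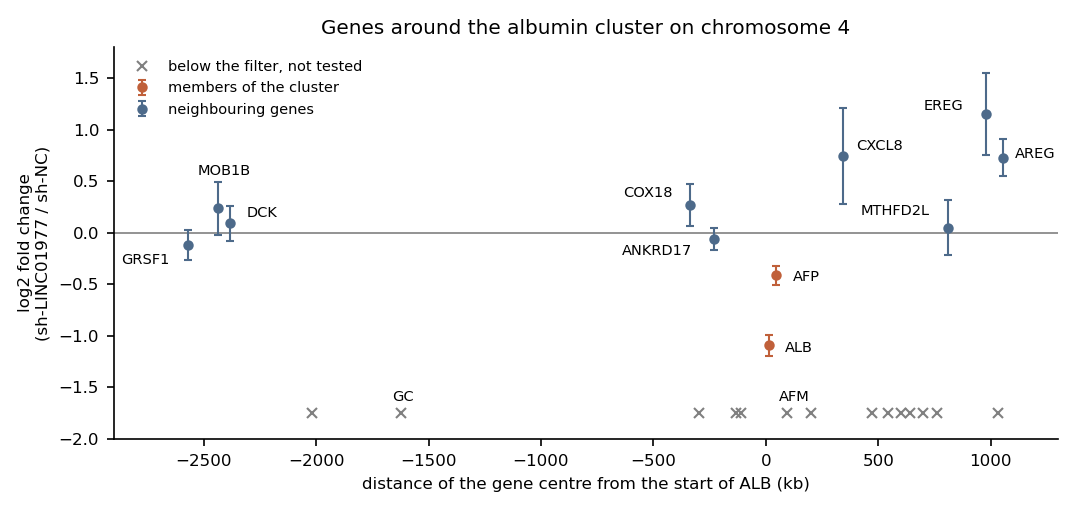
Log2 fold change (sh-LINC01977 over sh-NC, vertical axis) with 95% intervals from edgeR, against the distance of each gene's centre from the start of ALB in kb. ALB and AFP (orange) lie at -1.09 and -0.41, the 9 tested neighbours (blue) between -0.12 and 1.15, and crosses near the bottom mark AFM, GC and 12 neighbours below the filter, which have no value.

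Markers of liver cell types did not all move with ALB and AFP. Of the 5 hepatocyte markers 4 were lower at an adjusted p under 0.05 and TTR, at -0.17, did not pass. This share of 80.0% rests on 5 genes and stands beside 15.1% of all tested genes, 8.07% being lower. All 5 are also on the lists of plasma proteins or transcription factors above. The summed level of 4 biliary markers (KRT7, KRT19, EPCAM and SOX9) was 218 to 239 FPKM in sh-NC and 305 to 307 FPKM in sh-LINC01977 libraries. The rise of this sum came from KRT19, at 151 ± 9.4 FPKM in sh-NC and 234 ± 1.0 FPKM in sh-LINC01977 cells (SD, n = 3 each). KRT19 rose by 0.57 on the log2 scale (adjusted p = 0.00129 in edgeR), SOX9 fell by 0.24 (adjusted p = 0.0487), EPCAM, at -0.17, did not pass and KRT7 was below the filter. The part of these markers in the decrease of ALB and AFP was not tested.

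The log2 fold changes of ALB and AFP were stable across the processing settings. In 18 alternatives, ALB ranged from -1.12 to -1.03 and was at least 2-fold lower in all 18. AFP ranged from -0.44 to -0.35, and its adjusted p was at most 0.0126. The ratio of AFP to ALB, on the log2 scale, ranged from 0.66 to 0.70 with 1 library left out in turn, and other scalings cannot move it. The plot of both genes by setting shows that these ranges did not meet.

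**Figure D5:**
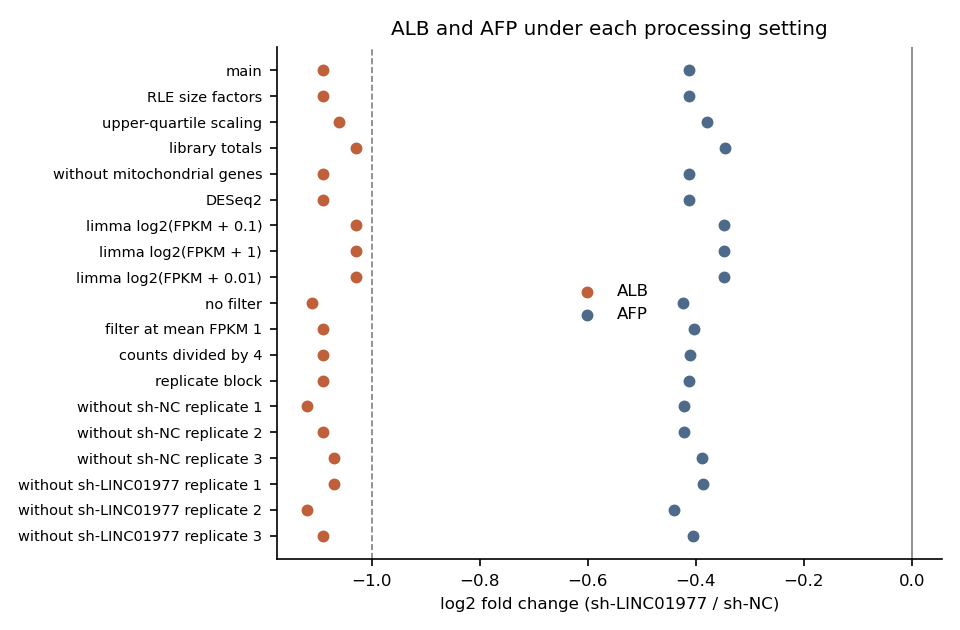
Log2 fold change (sh-LINC01977 over sh-NC, horizontal axis) of ALB (orange) and AFP (blue) under the main setting and 18 alternatives, 1 per line. The dashed line marks a 2-fold decrease, and ALB lies to its left and AFP to its right in every setting.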

How the data were processed

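RNA sequencing of HepG2 cells with sh-NC or sh-LINC01977 (3 libraries each) was analysed from 1 deposited table, and libraries were grouped by their labels. Raw read counts and FPKM values were deposited by the authors for each gene and library. The deposited counts were not normalized, and the deposited FPKM values were scaled to transcript length and library size. The submitters' processing notes name bcl2fastq 2.0, HISAT2, StringTie, DESeq2, limma and hg38, without role or order, and the strand setting is not given in the sources used here.

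The main test was the quasi-likelihood test of edgeR 4.0.16 under R 4.3.3, with TMM scaling. It was run on the 13452 genes whose mean reached 0.5 FPKM, and p-values were adjusted over them by Benjamini-Hochberg. Genes below this filter were read from a fit of all genes. Standard errors were the log2 fold change divided by the root of the F statistic. Exact permutation tests used SciPy 1.17.1. Gene positions were those of the table, which for the 4 members are also those of GENCODE 29, and promoter sequences came from RefSeq. The script was tested on simulated counts. Counts of 4 were over-frequent (8101 gene and library pairs, against 2780 with 3 and 1758 with 5), and a count is then not always a separate fragment.

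The members and gene lists were chosen with earlier results of these data known. From each list, at most 8 genes with an adjusted p under 0.05 were named by smallest p, with members the question is about that did not pass and all tested neighbours. Alternatives were other scalings, DESeq2 1.42.0, limma 3.58.1 on log2(FPKM + 0.1) and other pseudocounts, other filters, counts divided by 4, a replicate block and leaving out each library. Scaling to ALB was added after the data were seen. No set test was run. Values of 3 listed transcription factors are not reported here.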

Additional observations from a re-analysis of the deposited data

How the results depend on the processing

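ALB and AFP kept their direction and an adjusted p under 0.05 in every alternative run, from 7.6e-71 to 0.00543 for ALB and from 8.2e-11 to 0.0126 for AFP. With 1 library left out in turn, ALB ranged from -1.12 to -1.07, AFP from -0.44 to -0.39 and the log2 ratio from 0.66 to 0.70, while CPM, the replicate block and scaling to ALB cannot change that ratio. With limma on log2(FPKM + 1), which understates changes of low genes, the log2 fold changes of ONECUT1, A1BG, AMN and EREG shrank from -1.58, -1.56, -0.92 and 1.15 to -0.55, -0.80, -0.56 and 0.44. The number of transcription factors called, 9, was 5 with library totals and 5 with limma on log2(FPKM + 0.1), on log2(FPKM + 1) and on log2(FPKM + 0.01), and ranged from 5 to 7 with 1 library left out. The cause was not tested. The other lists stayed within 1.5 times of their counts, at 6 to 8 handling genes, 16 to 18 plasma proteins and 2 to 4 neighbours called. Over all tested genes, 948 higher and 1085 lower calls became 1455 and 768 with library totals, which moved the median log2 fold change from -0.001 to 0.065, and 1269 and 729 with limma on log2(FPKM + 0.1).

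Same-numbered libraries of the groups did not clearly deviate together (correlations of -0.034, 0.00506 and 0.0613). Different-numbered pairs lay between -0.054 and 0.0517. With 3 libraries per group, this cannot show whether same-numbered libraries shared a culture or a preparation. With a replicate block ALB was -1.09 (adjusted p = 0.00543) and AFP -0.41 (adjusted p = 0.0126), and 636 genes were called higher and 754 lower. AFM and GC had adjusted p of 0.427 to 0.67 in 14 alternatives. DESeq2 gave them no adjusted p, and they could not be fitted under a filter at 1 FPKM or without the library that holds their counts. Their depth, at most 9 counts in a library, sets the limit of what can be said of them.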
